A study of Mus musculus with 6 samples.

Results

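The nuclear genes for subunits of the mitochondrial respiratory chain and ATP synthase were compared between wild-type and Lyplal1 knockout 4T-1 cells. The members were the protein-coding rows of the count table whose symbols start with Nduf (assembly factors named Ndufaf left out), Uqcr, Cox4, Cox5, Cox6 (Cox6a2 left out), Cox7, Cox8 or Atp5, together with Sdha, Sdhb, Sdhc and Sdhd. The rule gave 85 of 55487 rows, of which 38 fall to complex I, 4 to complex II, 8 to complex III, 17 to complex IV and 18 to complex V. Of these, 82 had a count in some library and 77 had counts high enough to be tested. One symbol, Atp5o, has a pair of gene identifiers, and the second had no count in any library. On GRCm38, with GENCODE annotation, the members named most often below lie at chr15:58933756-58939488 (Ndufb9), chr17:31520115-31531331 (Ndufv3), chr11:53427922-53430831 (Uqcrq), chr4:116066965-116075071 (Uqcrh), chr11:96068852-96075670 (Atp5g1) and chr12:111961375-111966977 (Atp5mpl). The subunits made from mitochondrial DNA and cytochrome c1 (Cyc1) lie outside the rule and are given near the end.

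4T-1 is a mouse mammary carcinoma line labelled as breast cancer cells. The study profiled total RNA from 3 wild-type and 3 Lyplal1 knockout libraries, all without treatment. The Lyplal1 product is related to the acyl-protein thioesterases, and the series title ties it to palmitate on the DNA sensor cGAS. The wild-type libraries are described as NC and the knockout libraries as sg2. The labels do not say whether the knockout is 1 clone or a pool, or whether the libraries of a group came from separate cultures, so the p-values measure the spread between these libraries, which may be technical.

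Library totals ran from 16731209 to 17108975 counts. The targeted gene itself had 76, 73 and 68 counts in wild type and 54, 48 and 58 in the knockout, a log2 fold change of -0.28 ± 0.15 (SE) that was not called (edgeR adjusted p = 0.0886). The groups below are therefore called by their labels. Summed markers of mammary epithelium (Epcam, Krt8, Krt18, Krt19, Cdh1) were 3110 to 3197 CPM (counts scaled to a common library size) in wild type and 1710 to 1730 CPM in the knockout, and all 5 were called lower. Summed endothelial markers were 0.056 to 0.223 CPM in wild type and 0.875 to 5.73 CPM in the knockout, with the highest value in knockout replicate 3. Leukocyte markers, 1 of 6 of which was at 0 throughout, reached at most 1.89 CPM in the same library. Fibroblast markers summed to 67.2 to 69.9 CPM in wild type and 165 to 179 CPM in the knockout, nearly all from Pdgfra, while Col1a1 was called lower (3.66 ± 0.315 against 1.38 ± 0.822 CPM, SD, n = 3 each). The part of these markers in the results was not tested. In bulk RNA, fewer cells of a type and less RNA per cell cannot be told apart.

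The respiratory chain sits in the inner mitochondrial membrane. Complex I takes electrons from NADH and complex II from succinate. Complexes III and IV pass them by way of cytochrome c to oxygen. Complexes I, III and IV pump protons, and complex V, the ATP synthase, uses the returning protons to make ATP. Many promoters of these nuclear genes hold sites for nuclear respiratory factor 1 (NRF1), for YY1 and for factors of the ETS family such as GABP.

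Promoter windows are shown for the pair of members with the largest rises and the member with the largest fall among those with a RefSeq window, and for a member at the threshold. They are taken from RefSeq on GRCm38.p6, run from 250 bases before to 50 after a gene's start, and are written 5′ to 3′ along the gene. Capitals mark matches, on either strand, to GCGCA and GCGC with any base between them (NRF1), AANATGGCG (YY1), CCGGAAG (ETS) or CCAAT, and matches on both strands may overlap. The windows are chr11:96075582-96075881 for Atp5g1, chr16:37654319-37654618 for Ndufb4, chr4:116075021-116075320 for Uqcrh and chr9:50603800-50604099 for Sdhd, all on the minus strand.
Atp5g1: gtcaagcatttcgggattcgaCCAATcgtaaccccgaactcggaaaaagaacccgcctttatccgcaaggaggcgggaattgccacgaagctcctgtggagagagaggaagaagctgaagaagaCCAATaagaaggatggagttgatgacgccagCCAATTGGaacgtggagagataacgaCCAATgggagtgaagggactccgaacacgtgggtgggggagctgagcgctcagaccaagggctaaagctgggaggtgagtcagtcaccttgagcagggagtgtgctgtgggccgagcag
Ndufb4: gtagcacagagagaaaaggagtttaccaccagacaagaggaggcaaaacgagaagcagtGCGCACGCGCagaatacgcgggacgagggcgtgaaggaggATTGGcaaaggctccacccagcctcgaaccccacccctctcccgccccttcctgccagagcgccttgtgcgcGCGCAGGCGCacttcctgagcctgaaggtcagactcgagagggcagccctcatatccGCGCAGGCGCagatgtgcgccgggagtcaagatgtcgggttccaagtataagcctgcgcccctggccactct
Uqcrh: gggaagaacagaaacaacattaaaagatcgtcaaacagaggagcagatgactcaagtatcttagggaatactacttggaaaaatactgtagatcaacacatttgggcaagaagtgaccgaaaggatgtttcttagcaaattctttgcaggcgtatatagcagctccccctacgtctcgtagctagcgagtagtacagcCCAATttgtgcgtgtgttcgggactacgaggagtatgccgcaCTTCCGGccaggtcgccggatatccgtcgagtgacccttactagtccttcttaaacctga
Sdhd: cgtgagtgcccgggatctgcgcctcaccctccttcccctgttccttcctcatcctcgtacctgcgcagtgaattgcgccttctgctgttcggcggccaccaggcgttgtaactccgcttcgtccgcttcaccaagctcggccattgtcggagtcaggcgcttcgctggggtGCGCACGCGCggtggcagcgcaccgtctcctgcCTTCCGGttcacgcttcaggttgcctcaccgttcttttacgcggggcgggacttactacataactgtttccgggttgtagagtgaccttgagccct
The Atp5g1 window holds 5 CCAAT matches and none to the other motifs. The Ndufb4 window holds 3 NRF1 matches and 1 CCAAT. The window of Uqcrh, whose RNA was lower in the knockout, holds 1 ETS and 1 CCAAT match, and that of Sdhd holds 1 NRF1 and 1 ETS match.

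Across the 63 tested members with a RefSeq window (68 windows in all), the NRF1 letters occurred in 18 windows (26.5%). The share was 10.2% of 12062 windows of tested genes and 4.59% of all 32817 windows. The YY1 letters were in 14.7% of the members' windows, against 5.06% of windows of tested genes, and the ETS letters in 23.5% against 18.1%. CCAAT was about as frequent in the members (39.7%) as in tested genes (37.9%). The medians of the RNA changes were close with and without the NRF1 letters. Of 17 members with them, 14 were called higher and 1 lower, with a median log2 fold change of 0.53. Of 46 without them, 33 were higher and 6 lower, with a median of 0.55. With the YY1 letters 9 of 10 members were higher and 0 lower (median 0.57), and without them 38 of 53 and 7 (0.52). With the ETS letters 10 of 16 were higher and 4 lower (0.54), and without them 37 of 47 and 3 (0.53). With CCAAT 19 of 26 were higher and 4 lower (0.50), and without it 28 of 37 and 3 (0.57). These matches are descriptions of letters in a window and were not tested against the changes.

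Most of the chain's nuclear subunit genes had more RNA in the knockout. With edgeR's quasi-likelihood test, adjusted over all 13022 tested genes at a threshold of 0.05, 58 of the 77 tested members were called higher, 9 lower and 10 were not called. Over all tested genes, 41.3% were called higher, 40.9% lower and 82.3% in either direction, so a call alone is common in these libraries. Of the tested members, 75.3% were called higher and 11.7% lower. The median log2 fold change of the members (knockout over wild type) was 0.52, a 1.43-fold rise, against -0.00 for all tested genes. The changes were moderate in size. The largest was 1.68 on the log2 scale. Of the 77 tested members, 6 were called at least 2-fold higher, and only Uqcrh was at least 2-fold lower (2.44-fold). Of all tested genes, 28.1% changed at least 2-fold in one direction or the other, whether called or not. CPM ranges of the groups did not overlap for 68 members, 60 of them higher in the knockout. The same held for 83.1% of all tested genes, 41.7% being higher. The split depended on the scaling: in a test of the deposited length-scaled values (TPM) with limma, 53 members were called higher and 17 lower, while over all tested genes the shares moved to 31.7% higher and 50.7% lower (log2(TPM + 1)).

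**Figure D1:**
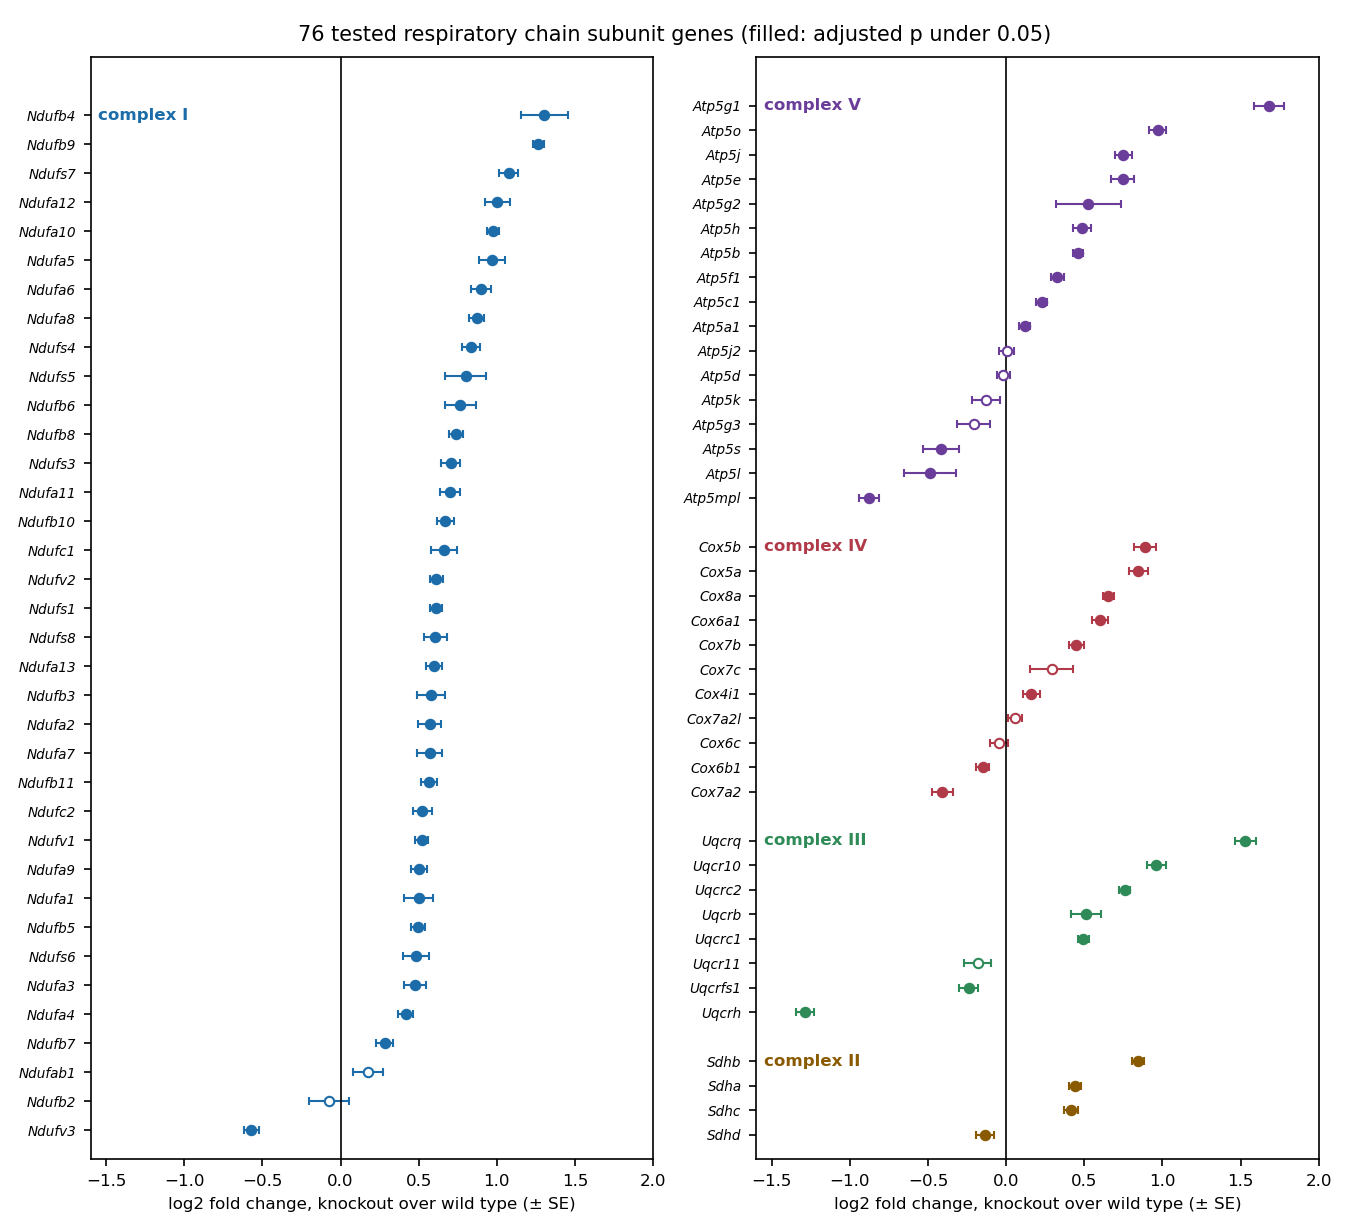
Fitted log2 fold change (knockout over wild type, x axis) with its standard error for 76 of the tested subunit genes (y axis), grouped by complex; filled points passed an adjusted p of 0.05. In complex I nearly all points lie to the right of 0, 33 of the 36 shown being called higher and 1 lower. Complexes II, III, IV and V each have called genes on both sides as well.

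Complex I moved most evenly. Of its 37 tested genes 34 were called higher, 1 lower and 2 were not called, with a median log2 fold change of 0.61 and a range from -0.57 to 1.30. All 7 nuclear-encoded core subunits, the conserved catalytic part of the enzyme, were called higher. By structural module, 9 of 10 genes of the N module, where NADH is oxidised, were higher and 1 was lower (median 0.59). All 6 of the Q module, where quinone is reduced, were higher (median 0.65), as were all 9 of the proximal membrane arm (median 0.66). Of 11 genes of the distal membrane arm 9 were higher and 2 were not called (median 0.58).

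Among core subunits of the N module, Ndufv1, which binds NADH and the flavin, was at 114, 117 and 123 CPM in wild type and 166, 163 and 179 CPM in the knockout (log2 fold change 0.52). Ndufv2, an iron-sulfur protein next to it, was at 81.9, 88.0 and 89.1 CPM in wild type and 131, 132 and 134 CPM in the knockout (log2 fold change 0.61). Ndufs1, the large iron-sulfur subunit, stood at 79.7, 80.2 and 83.6 CPM against 121, 125 and 126 CPM (log2 fold change 0.61). For all 3 of these genes every knockout library was above every wild-type library, with edgeR adjusted p of 6.9e-12 for Ndufv1, 1.89e-13 for Ndufv2 and 1.33e-13 for Ndufs1. Their small partner Ndufv3, an accessory subunit of the same module, went the other way. It was at 67.8, 73.8 and 72.2 CPM in wild type and 49.7, 45.4 and 48.9 CPM in the knockout, or 71.3 ± 3.11 against 47.99 ± 2.29 (SD, n = 3 each). Its groups did not overlap, and it was 1.48-fold lower (log2 fold change -0.57 ± 0.050 SE, edgeR adjusted p = 6.04e-11). No other complex I gene was called lower.

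In the Q module the largest change was that of Ndufs7, which holds the iron-sulfur cluster nearest to quinone. It rose from 44.1, 47.3 and 48.6 CPM to 98.3, 89.1 and 107 CPM, a 2.11-fold difference (edgeR adjusted p = 7.47e-13). Ndufs3, a subunit of the peripheral arm, was at 26.4, 26.8 and 28.4 CPM in wild type and 42.4, 42.7 and 47.8 CPM in the knockout (log2 fold change 0.70). Ndufs8, another iron-sulfur subunit, was at 50.9, 46.6 and 56.8 CPM against 75.9, 72.8 and 86.1 CPM (log2 fold change 0.61). The groups were apart for all 3, but the sizes differed, with Ndufs8 1.52-fold and Ndufs3 1.63-fold higher. The accessory subunits Ndufa5 and Ndufa9 had log2 fold changes of 0.97 and 0.50.

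The largest changes of complex I lay in the membrane arm. Ndufb4, an accessory subunit of the distal arm, was at 2.45, 2.41 and 2.25 CPM in wild type and 6.63, 5.68 and 5.29 CPM in the knockout. This 2.47-fold difference (log2 1.30 ± 0.15 SE, edgeR adjusted p = 1.15e-08) rests on low counts, and 18.3% of the gene's 50-base words occur in other genes too. Ndufb9, a distal-arm subunit of the LYR-motif family, had far more counts and a smaller error, with 153, 155 and 165 CPM in wild type and 370, 373 and 396 CPM in the knockout. Its means were 158 ± 6.44 and 380 ± 14.0 CPM (SD, n = 3 each), 2.40-fold apart (log2 1.27 ± 0.037 SE, edgeR adjusted p = 2.94e-21). In the proximal arm the largest change was that of Ndufa10, which was at 91.9, 94.8 and 99.7 CPM in wild type and 191, 180 and 192 CPM in the knockout, a 1.97-fold rise. The smallest called rise of complex I was that of Ndufb7, with a log2 fold change of 0.28.

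A pair of distal-arm genes were not called. The exons of both add up to several kilobases, as do those of Ndufb5 and Ndufb7 of the same arm, which were called higher. Ndufab1, the mitochondrial acyl carrier protein, was at 9.09, 10.1 and 9.84 CPM in wild type and 11.7, 10.8 and 10.3 CPM in the knockout (log2 fold change 0.17 ± 0.095 SE, edgeR adjusted p = 0.0919). Ndufb2 was at 4.63, 5.27 and 5.002 CPM against 4.63, 4.99 and 4.53 CPM (log2 fold change -0.07 ± 0.13 SE, edgeR adjusted p = 0.603), and its groups overlapped. Ndufa4, named as a complex I subunit but now assigned to cytochrome c oxidase, was at 54.0, 54.2 and 58.4 CPM in wild type and 73.8, 72.9 and 75.7 CPM in the knockout (log2 fold change 0.42). Its relative Ndufa4l2 was barely detected, with 0, 0 and 1 counts in wild type and 1, 1 and 4 counts in the knockout, and was not tested.

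**Figure D2:**
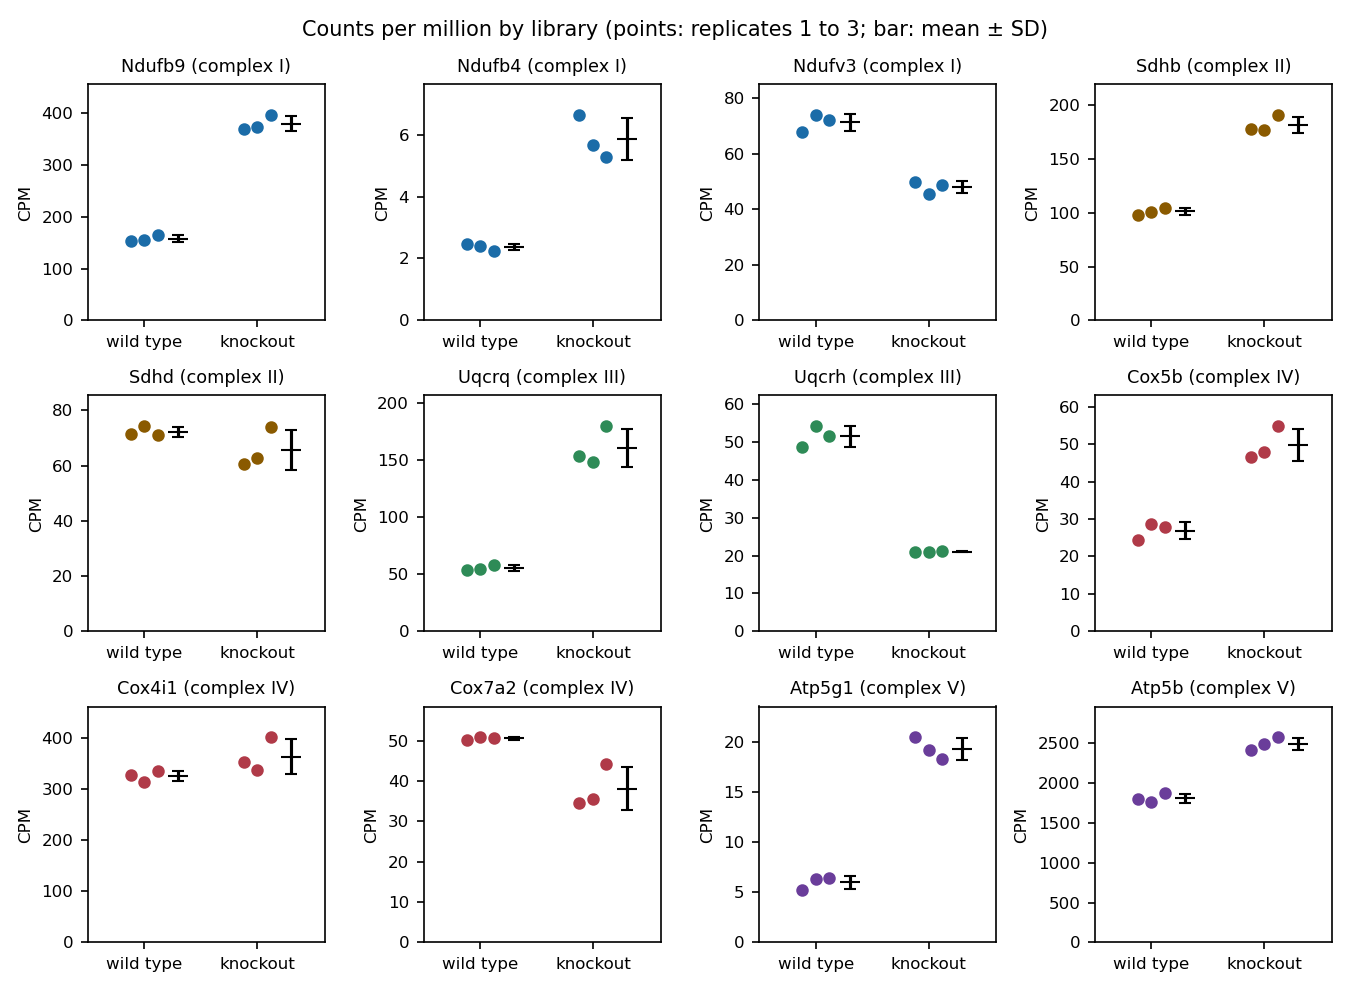
CPM (y axis, starting at 0) of 12 subunit genes in each wild-type and knockout library, as points, with mean ± SD (n = 3) as bars. Ndufb9, Uqcrq and Atp5g1 are higher in all 3 knockout libraries, Ndufv3 and Uqcrh are lower in all 3, and in Sdhd knockout replicate 3 lies among the wild-type libraries.

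Complex II, succinate dehydrogenase, consists of a catalytic pair and a membrane anchor pair, and its 4 genes did not move together. Sdhb, the iron-sulfur subunit, rose most, from 98.0, 101 and 105 CPM to 178, 177 and 190 CPM (1.80-fold, log2 0.84 ± 0.040 SE, edgeR adjusted p = 1.09e-16). Sdha, the flavoprotein that oxidises succinate, went from 228, 219 and 231 CPM to 301, 300 and 321 CPM (log2 fold change 0.44). The anchor subunit Sdhc was at 93.7, 98.5 and 97.7 CPM in wild type and 127, 121 and 139 CPM in the knockout (log2 fold change 0.42). All 3 had groups that did not overlap. Sdhd, the other anchor subunit, was at 71.6, 74.2 and 70.9 CPM in wild type and 60.5, 62.7 and 73.9 CPM in the knockout. Its groups overlapped through knockout replicate 3, and although it was called lower (log2 fold change -0.14 ± 0.058 SE, edgeR adjusted p = 0.0376), the call was lost under DESeq2 and on leaving out wild-type replicate 1 or 2 or knockout replicate 1 or 2.

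Complex III, the cytochrome bc1 complex, had the widest spread for its size. Of 8 genes, 5 were called higher, 2 lower and 1 was not called, with a median log2 fold change of 0.50 and a range from -1.29 to 1.53. Uqcrq, a small subunit bound to cytochrome b, rose from 53.4, 55.1 and 58.2 CPM to 153, 149 and 180 CPM (2.89-fold, log2 1.53 ± 0.067 SE, edgeR adjusted p = 5.03e-11). Uqcr10, another small membrane subunit, was at 49.8, 47.8 and 47.0 CPM in wild type and 88.3, 87.8 and 106 CPM in the knockout (log2 fold change 0.96). Both were above wild type in every knockout library, with knockout replicate 3 highest.

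The core proteins on the matrix side of complex III rose less. Uqcrc2 was at 134, 131 and 136 CPM in wild type and 220, 223 and 236 CPM in the knockout (log2 fold change 0.76). Its partner Uqcrc1 was at 300, 293 and 302 CPM against 410, 402 and 448 CPM (log2 fold change 0.49). Neither had overlapping groups, and Uqcrb, which binds near the quinone site, was called higher as well (log2 fold change 0.51).

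The called falls of complex III concerned the Rieske protein and the hinge protein. Uqcrfs1, the Rieske iron-sulfur protein that hands electrons to cytochrome c1, was at 108, 107 and 108 CPM in wild type and 86.2, 84.0 and 103 CPM in the knockout (log2 fold change -0.24 ± 0.060 SE, edgeR adjusted p = 0.00172). The wild-type libraries were nearly equal, and knockout replicate 3 lay closest to them. Uqcrh, the acidic hinge protein beside cytochrome c1, had the largest fall of all members. It was at 48.7, 54.1 and 51.4 CPM in wild type and 20.9, 21.04 and 21.2 CPM in the knockout, 2.44-fold lower (log2 fold change -1.29 ± 0.060 SE, edgeR adjusted p = 7.3e-17). Here the 3 knockout libraries were close to each other and far below wild type. Uqcr11, the last small subunit, was at 15.8, 16.98 and 18.5 CPM against 13.7, 14.6 and 16.9 CPM, with overlapping groups (log2 fold change -0.18 ± 0.087 SE, edgeR adjusted p = 0.0579).

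Complex IV, cytochrome c oxidase, had 17 members, and 6 of them were too low to test. Of the 11 tested, 6 were called higher, 2 lower and 3 were not called (median log2 fold change 0.29, range -0.41 to 0.89), and in the TPM tests 4 were lower. The shift was thus smaller than in complexes I to III by its median; no test between complexes was made. Cox5b, the zinc-binding subunit, rose from 24.3, 28.6 and 27.8 CPM to 46.6, 47.9 and 54.7 CPM (log2 fold change 0.89, edgeR adjusted p = 1.47e-11). Cox5a was at 74.6, 76.2 and 82.2 CPM in wild type and 129, 136 and 154 CPM in the knockout (log2 fold change 0.85, edgeR adjusted p = 7.98e-10). These matrix-side subunits were 1.85-fold and 1.80-fold higher, with no overlap.

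Several complex IV subunits exist in a widely expressed form and a form found in heart, muscle, lung or testis. The widely expressed Cox8a was at 229, 235 and 243 CPM in wild type and 363, 363 and 387 CPM in the knockout (log2 fold change 0.65). Cox6a1 was at 194, 168 and 191 CPM against 285, 263 and 290 CPM (log2 fold change 0.60). For Cox7b the values were 50.7, 51.4 and 48.2 CPM in wild type and 68.1, 66.6 and 70.5 CPM in the knockout (log2 fold change 0.45). All 3 were higher in every knockout library. Cox4i1, the widely expressed form of the regulatory subunit, was at 326, 314 and 334 CPM against 352, 337 and 401 CPM. This rise was small (log2 fold change 0.16 ± 0.055 SE, edgeR adjusted p = 0.0167), and it had the opposite sign in the TPM tests (-0.05).

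Other widely expressed forms fell or stayed close to wild type. Cox7a2 was at 50.2, 50.8 and 50.6 CPM in wild type and 34.5, 35.6 and 44.2 CPM in the knockout, 1.33-fold lower (log2 fold change -0.41 ± 0.069 SE, edgeR adjusted p = 1.85e-05). Cox6b1, which faces the intermembrane space, was at 89.7, 89.4 and 91.8 CPM against 81.1, 79.0 and 84.0 CPM (log2 fold change -0.15, edgeR adjusted p = 0.00188). Both had groups without overlap, the second with a difference of 1.11-fold only. Cox7a2l, a related protein that joins complexes III and IV in supercomplexes, was at 104, 100 and 112 CPM in wild type and 112, 105 and 112 CPM in the knockout and was not called (edgeR adjusted p = 0.229). Cox6c (log2 fold change -0.04 ± 0.055 SE) and Cox7c (0.29 ± 0.14 SE) were not called either.

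The 6 alternative forms among the members were near the limit of detection in both groups, unlike Cox6a2, which lies outside the rule and had 200, 171 and 170 counts in the knockout against 1, 3 and 0 in wild type. Cox4i2, the form known from lung, had 0, 0 and 3 counts in wild type and 4, 6 and 3 counts in the knockout. Cox7a1, the heart and muscle form, had 3, 4 and 3 counts against 3, 4 and 2. Cox6b2, known from testis, had 1, 1 and 1 counts in wild type and 0, 1 and 0 in the knockout. Cox8b had 0 counts in wild type and 1, 0 and 1 in the knockout, and Cox7b2 and Cox8c had none in any library. In the fit without a filter on low counts, Cox4i2 was called higher (edgeR adjusted p = 0.0362) on these few counts. Replicate 3 of each group had 3 counts of it, so its groups were apart only after scaling (0.169 against 0.189 CPM). Cox6b2, Cox7a1 and Cox8b were not called.

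Complex V showed the largest single rise and the second largest fall of all members. Of 17 tested genes, 10 were called higher, 3 lower and 4 were not called, with a median log2 fold change of 0.23 and a range from -0.88 to 1.68. In the catalytic F1 head 4 of 5 genes were called higher and 1 was not called (median 0.23). In the membrane part Fo with its stalk 6 of 11 were higher, 2 lower and 3 not called (median 0.33). The remaining tested member, Atp5s, is a coupling factor rather than a structural subunit. The number of called falls depended on the scaling and on 1 library, and was higher than 3 under the alternatives that follow. In the test on log2(TPM + 1) 8 of the 17 genes were called lower, where 50.7% of all tested genes were, and with unscaled totals 7, where 47.7% of all tested genes were. Upper-quartile factors also gave 7, and leaving out knockout replicate 3 gave 5.

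The genes of the large F1 subunits changed by less than 1.5-fold. Atp5b, the catalytic beta subunit, was at 1801, 1763 and 1875 CPM in wild type and 2415, 2485 and 2576 CPM in the knockout (log2 fold change 0.46, edgeR adjusted p = 5.63e-13). Atp5a1, its alpha partner, was at 923, 888 and 964 CPM against 965, 984 and 1063 CPM (log2 fold change 0.12, edgeR adjusted p = 0.00509), and the sign of this change turned under 4 other scalings. Atp5c1, the gamma subunit of the rotating stalk, was at 281, 275 and 288 CPM in wild type and 317, 327 and 345 CPM in the knockout (log2 fold change 0.23). Alpha and beta subunits, which form the head in equal number, thus differed in the size of their change, 1.09-fold and 1.37-fold. The epsilon subunit gene Atp5e had the largest change of the head (log2 fold change 0.75), with 26.8, 30.7 and 29.8 CPM against 47.4, 43.9 and 55.1 CPM. For the delta subunit gene Atp5d the groups overlapped (log2 fold change -0.02 ± 0.042 SE, edgeR adjusted p = 0.706).

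A family of 3 genes, Atp5g1, Atp5g2 and Atp5g3, encodes the same mature c subunit of the Fo ring, each with its own import sequence. Atp5g1 had the largest rise of all members, from 5.24, 6.28 and 6.46 CPM to 20.4, 19.2 and 18.2 CPM, or 5.995 ± 0.657 against 19.3 ± 1.10 (SD, n = 3 each). This is 3.21-fold (log2 1.68 ± 0.096 SE, edgeR adjusted p = 6.28e-15), with the groups far apart. Atp5g2 was low, at 1.45, 2.02 and 1.74 CPM in wild type and 2.06, 2.87 and 2.58 CPM in the knockout. It was called (log2 fold change 0.53 ± 0.21 SE, edgeR adjusted p = 0.0226), but the call was lost under 9 of 16 alternatives, and 38.3% of its 50-base words occur in other genes. Atp5g3 was at 100, 99.5 and 103 CPM in wild type and 78.6, 80.3 and 103 CPM in the knockout. Knockout replicate 3 lay at the wild-type level. The gene was not called (log2 fold change -0.21 ± 0.11 SE, edgeR adjusted p = 0.112), but without that library it was called lower (-0.34, edgeR adjusted p = 1.46e-09). It was also called lower with the replicate block, without a filter, with unscaled totals or upper-quartile factors and in both TPM tests. Per length, Atp5g3 gave 95.4% of the family's summed TPM in wild type and 88.1% in the knockout. The sum was 204, 205 and 211 TPM in wild type and 154, 158 and 190 TPM in the knockout. On this scale the family's sum was lower in every knockout library although Atp5g1 rose. TPM divide Atp5g1 by 4912 bases of exon and Atp5g3 by 2181, and they shift the median log2 fold change of all tested genes to -0.19 (limma on log2(TPM + 1)). In CPM the fall of Atp5g3 (means 101 and 87.4) and the rise of Atp5g1 (5.995 and 19.3) were similar in size.

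Peripheral stalk genes were called higher. Atp5o, the subunit that ties the stalk to the head, was at 29.7, 29.9 and 29.8 CPM in wild type and 56.6, 55.6 and 62.9 CPM in the knockout (1.96-fold, edgeR adjusted p = 9.95e-15). The stalk genes Atp5j, Atp5h and Atp5f1 had log2 fold changes of 0.75, 0.48 and 0.33. By contrast, the small membrane subunits beside the ring were not called or fell. Atp5mpl, a small proteolipid of the membrane part, was at 43.6, 46.5 and 46.1 CPM in wild type and 22.6, 24.4 and 27.1 CPM in the knockout, 1.84-fold lower (log2 fold change -0.88 ± 0.063 SE, edgeR adjusted p = 9.69e-13). Atp5l, subunit g, was at 3.79, 3.31 and 3.60 CPM against 2.63, 2.25 and 2.77 CPM (log2 fold change -0.48 ± 0.17 SE, edgeR adjusted p = 0.0097). Its groups were apart at low counts. Atp5j2 and Atp5k, subunits f and e, had log2 fold changes of 0.00 ± 0.046 and -0.13 ± 0.090 (SE) and were not called. Atp5s was at 8.09, 7.34 and 7.64 CPM in wild type and 5.19, 6.24 and 5.85 CPM in the knockout, and was called lower (log2 fold change -0.42, edgeR adjusted p = 0.00168).

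Levels between genes were compared per length, as deposited TPM. In wild type the highest members were Atp5b at 1822 TPM, Cox8a at 1624 TPM, Atp5a1 at 1257 TPM and Cox6a1 at 1118 TPM, and the lowest tested one was Atp5l at 2.36 TPM. In the knockout Cox8a and Atp5b were close, at 2211 ± 43.4 and 2170 ± 41.4 TPM (SD, n = 3), with Cox8a above Atp5b in replicates 1 and 3 only. Cox6a1 at 1467 TPM passed Atp5a1 at 1181 TPM, and Ndufb9 rose from 652 to 1358 TPM. The deposited TPM divide by a gene's summed exon length, which was 6883 bases for Ndufab1 and 6443 for Atp5l. Both genes were low before this division too, with wild-type means of 9.69 and 3.57 CPM. Ndufs1, with 8086 bases of exon, was at 42.7 TPM in wild type. The part of exon length in the low TPM was not tested.

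Summed over its nuclear members, complex I rose from 4607 ± 131 to 6600 ± 212 TPM (SD, n = 3 each), a ratio of 1.43. For complex II the sums were 803 ± 6.38 and 917 ± 37.7 TPM (ratio 1.14), and for complex III 1687 ± 7.23 and 2072 ± 133 TPM (ratio 1.23). Complex IV had 5200 ± 126 and 6033 ± 193 TPM (ratio 1.16). In these 4 complexes every knockout library lay above every wild-type library. Complex V differed. Its sums were 5239, 5163 and 5376 TPM in wild type and 5279, 5379 and 5585 TPM in the knockout, a ratio of 1.03 with overlapping libraries. Over all members the sum went from 17556 ± 323 to 21036 ± 705 TPM. These sums depend on the TPM scale, on which the median log2 fold change of all tested genes was -0.19 (limma on log2(TPM + 1)).

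**Figure D3:**
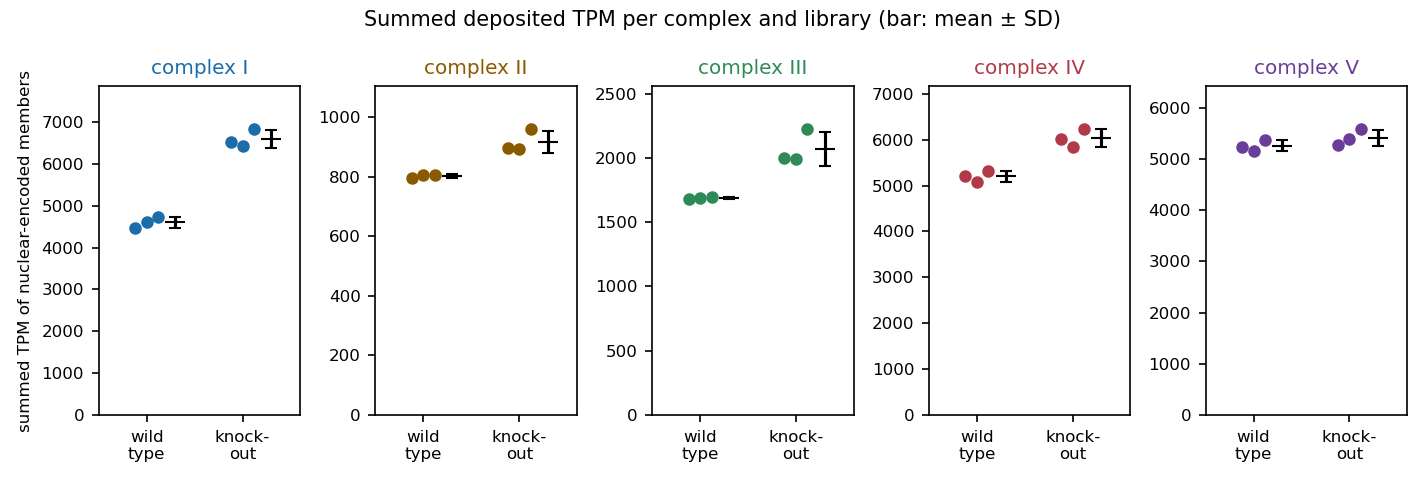
Sum of the deposited TPM (y axis, starting at 0, scaled separately in each panel) over the nuclear-encoded members of each complex, per library (points) with mean ± SD (n = 3, bars). The groups are apart in complexes I to IV, with the largest ratio in complex I (1.43), and overlap in complex V (1.03).

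Knockout replicate 3 stood apart from the other knockout libraries in these genes. It was the highest of the 3 knockout libraries for 58 of the 77 tested members, against 37.3% of all tested genes, and for 7 of the 9 members called lower. In 10 members it was at least 1.2-fold above the mean of the other knockout libraries, as it was in 7.63% of all tested genes. Leaving it out gave 60 members higher and 12 lower, so the direction of the members as a group did not rest on it.

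Member genes are short, with a median exon length of 1718 bases against 4174 for all tested genes. Short genes as a whole leaned upward by their median change. The share of higher calls was lowest below 1000 bases and highest from 2000 to 4000. The median log2 fold change of all tested genes was 0.18 below 1000 bases of exon, 0.15 from 1000 to 2000, 0.08 from 2000 to 4000 and -0.08 from 4000 upward. The shares called higher in these bins were 35.6%, 44.1%, 46.2% and 38.5%. The members' medians in the same bins were 0.57, 0.58, 0.52 and 0.44, each above that of all genes of like length. Some subunit genes also share 50-base words with other annotated genes on either strand, which include pseudogenes but are not limited to them. Among 58 tested members with under 10% of their 50-base words in another gene, 41 were called higher and 9 lower (median 0.49), and among the other 19, 17 were higher and 0 lower (median 0.70). The count of 0 also held for DESeq2 and for edgeR at an unadjusted p under 0.05. It did not hold in the TPM tests. There Cox7a2l, with 13.8% of its words shared, was called lower (limma on log2(TPM + 1), adjusted p = 0.00877). The count of 0 depends on the cut at 10% too, since Atp5l, which was called lower, lies just under it with 9.99%. The sharing genes need not be pseudogenes: Cox5b shared 11.9% of its words with 1 gene and 0 pseudogenes. Exon bases were shared with an overlapping gene in 30 members, and in Ndufa13, Ndufb6 and the uncounted second Atp5o identifier the share was at least 20%. The sources used here give no strand or multiple mapping setting, so the values of these genes are less certain.

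Genes that build the chain or carry its electrons had more higher than lower calls too. Of 53 tested assembly factors 41 were called higher (77.4%) and 4 lower (7.55%), beside 41.3% and 40.9% of all tested genes (median log2 fold change 0.53). The largest was Cox18, which inserts a mitochondrially made oxidase subunit into the membrane. It was at 24.6, 23.9 and 26.8 CPM in wild type and 129, 128 and 138 CPM in the knockout, 5.24-fold higher (edgeR adjusted p = 3.09e-24). Foxred1, a complex I assembly factor, had a log2 fold change of 1.46, and Lrpprc, which stabilises mitochondrial messenger RNA, one of 0.94. Among electron carriers and enzymes of coenzyme Q synthesis 14 of 19 were higher (73.7%) and 4 lower (21.1%), with a median of 0.58. Coq5, Coq9 and the cytochrome c haem lyase gene Hccs had log2 fold changes of 0.81, 0.71 and 0.94. The largest change of that list was a fall, that of Coq8a, a kinase-like protein of coenzyme Q synthesis named after its values were seen (log2 fold change -2.22 ± 0.26 SE, edgeR adjusted p = 1.58e-08).

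Cyc1, the cytochrome c1 subunit of complex III, belongs with the members by function. It was at 95.6, 96.5 and 94.0 CPM in wild type and 215, 221 and 258 CPM in the knockout, 2.43-fold higher (edgeR adjusted p = 2.68e-10). Its direction was opposite to that of its hinge protein Uqcrh and of the Rieske protein Uqcrfs1. A list for the tricarboxylic acid cycle, which supplies NADH and succinate, also held the cytosolic enzymes Aco1 (called higher), Idh1 (lower) and Mdh1 (not called). Of its 17 genes, 12 were called higher (70.6%) and 3 lower (17.6%). The median was 0.38, with Idh3g at 0.75 and the cytosolic Idh1 at -1.19. A further list held the ADP/ATP and phosphate carriers together with Vdac1, Vdac2, Vdac3, Atpif1 and Usmg5, which are not such carriers. Of its 8 tested genes 4 were called higher (50%) and 3 lower (37.5%), beside 41.3% and 40.9% of all tested genes. The median log2 fold change of the list was 0.08. The carriers Slc25a5, Slc25a3 and Slc25a4 had log2 fold changes of 0.68, 0.19 and -0.19. Those of Vdac3 and Vdac1 were 1.10 and -0.26.

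Of 15 tested regulators of mitochondrial biogenesis, 5 were called higher (33.3%) and 8 lower (53.3%), beside 41.3% and 40.9% of all tested genes (median log2 fold change -0.13). Lonp1, the matrix protease, rose from 278, 282 and 280 CPM to 639, 613 and 643 CPM. Yy1 fell from 268, 263 and 271 CPM to 107, 114 and 109 CPM, and Myc from 491, 488 and 489 CPM to 225, 200 and 196 CPM. These last 2 were 2.42-fold and 2.36-fold lower, with edgeR adjusted p of 1.42e-21 and 5.15e-19. Tfam, which packages and transcribes mitochondrial DNA, was lower (log2 fold change -0.34), Hif1a was higher (0.38), and Nrf1 was not called (-0.08 ± 0.046 SE, edgeR adjusted p = 0.112). Ppargc1a, the coactivator of many of these genes, had almost no counts and was not tested.

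The subunits encoded by mitochondrial DNA went in the opposite direction from their nuclear partners. All 7 with counts were called lower, as were 40.9% of all tested genes. Their median log2 fold change was -2.41, and the other 6 were listed at 0 in every library. For complex I, mt-Nd1 had 5.30-fold, mt-Nd2 5.29-fold and mt-Nd5 8.003-fold less RNA in the knockout. The largest fall was that of mt-Cytb, which encodes cytochrome b of complex III, from 2310 ± 93.8 to 187 ± 14.2 CPM (SD, n = 3 each), 12.4-fold lower (edgeR adjusted p = 2.5e-21). The smallest was that of mt-Co1, the catalytic subunit of complex IV, 3.38-fold lower. How the library preparation treated mitochondrial RNA is not given in the sources used here, and its part in this difference was not tested.

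**Figure D4:**
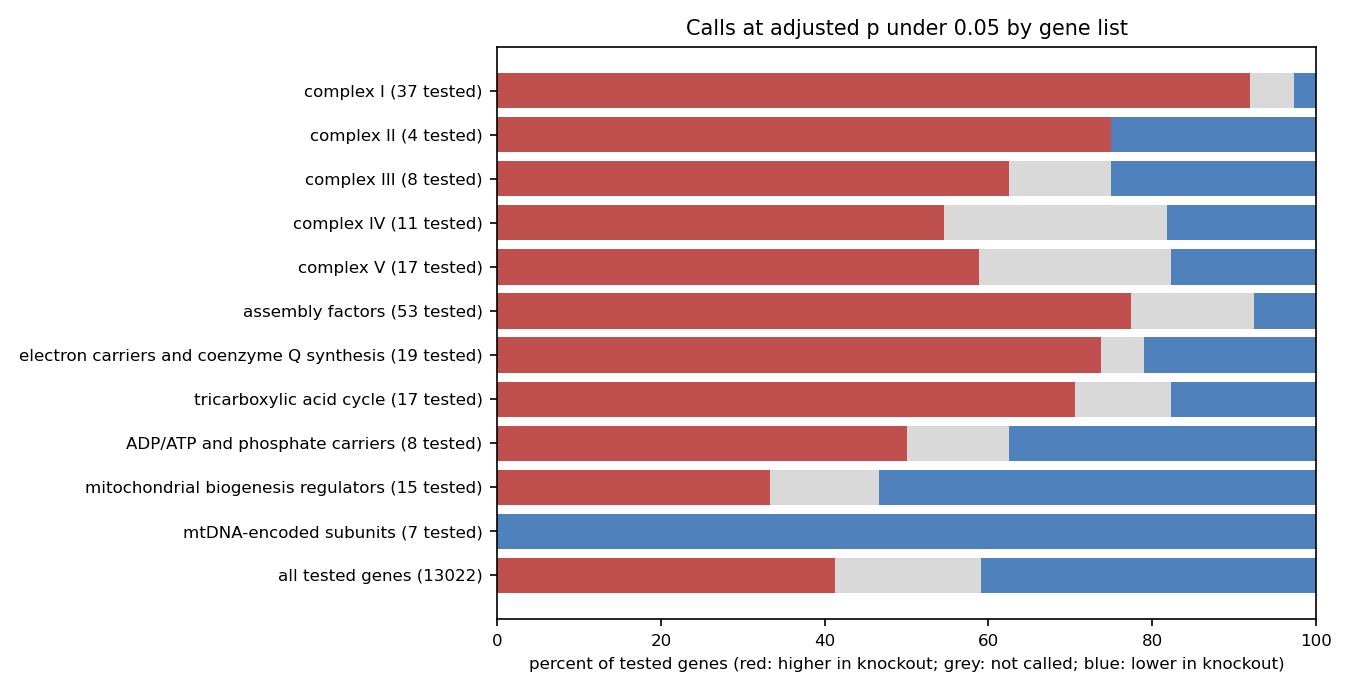
Percent of tested genes (x axis) called higher in the knockout (red), not called (grey) or called lower (blue) at an adjusted p of 0.05, for each complex, for the other gene lists and for all 13022 tested genes. The share of higher calls is largest in complex I (91.9%), and the mitochondrially encoded subunits have no higher call.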

How the data were processed

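RNA of 3 wild-type and 3 Lyplal1 knockout 4T-1 libraries was analysed. The authors deposited whole-number counts and TPM per gene; STAR 2.7.8a and featureCounts 2.0.1 are named, beside the build GRCm38, in the submitters' processing notes. The deposited TPM equalled counts over summed exon length, rescaled, within 5% in wild-type replicate 1 for all 76 members with at least 100 counts over the wild-type libraries and for 99.2% of 9930 tested genes with at least 100 counts in that library. They add no reads to the counts. Symbols, coordinates and exon lengths come from GENCODE M21 (GRCm38).

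Counts were filtered with filterByExpr, scaled by TMM and tested with edgeR's robust quasi-likelihood F test (edgeR 4.0.16, R 4.3.3), two-sided, on all 13022 genes left, with Benjamini-Hochberg adjustment and a threshold of 0.05. CPM are counts per TMM-scaled library size. Each standard error (SE) was computed from a gene's log2 fold change and F statistic. Alternatives were other scaling factors, DESeq2 1.42.0, limma 3.58.1 on log2(TPM + 1) and log2(TPM + 0.1), other filters, a test against a 1.2-fold change, a replicate block and leaving out each library. The test was also tried on simulated data. Promoter windows come from RefSeq (GRCm38.p6).

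Members and gene lists were chosen with earlier results of these data known. Named genes are core subunits, subunits with alternative copies, the 3 highest and 2 lowest log2 fold changes of each complex, every member called lower, and in other lists the 3 called genes of lowest adjusted p plus a few preset genes; a few of these are not reported here.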

Additional observations from a re-analysis of the deposited data

Results flagged for a closer look

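A pair of rows just outside the members stood out from wild type. Cox6a2, the heart and muscle form of a complex IV subunit, had 1, 3 and 0 counts in wild type and 200, 171 and 170 counts in the knockout, where its mean was 11.3 CPM. This is a signal in data that the comparison of members does not use, and edgeR called it higher (adjusted p = 1.84e-18). The other heart and muscle forms, Cox7a1 and Cox8b, stayed at 4 counts or fewer in every library, and the summed muscle markers were 95.0 to 110 CPM in wild type and 17.2 to 18.2 CPM in the knockout, nearly all from Tnnt2. Ckm, a muscle marker too low to test, was not counted in wild type (0, 0 and 0) and had 4, 4 and 18 counts in the knockout, Actn2 had 0, 1 and 0 against 0, 1 and 4, and Myh7 was at 0 throughout. Their part in the rise of Cox6a2 was not tested.

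Ndufb1-ps, annotated as a long non-coding RNA and therefore left out as not protein-coding, had 238, 251 and 282 counts in wild type and 337, 429 and 496 in the knockout, with a knockout mean of 26.3 CPM. It was called higher as well (log2 fold change 0.87 ± 0.14 SE, edgeR adjusted p = 0.00018), like most complex I members.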

How the results depend on the processing

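Of the 77 tested members, 59 kept direction and call under all 16 alternatives, among them 53 of the 58 called higher and 5 of the 9 called lower. RLE factors (58 higher, 9 lower) and DESeq2 (57 and 7) moved the counts little. Upper-quartile factors and unscaled totals shift the median of all tested genes to -0.13 and -0.14 (log2), and limma on TPM shifts it to -0.19 (TPM + 1) or -0.21 (TPM + 0.1). Members called lower then number 15 with upper-quartile factors or unscaled totals and 17 with either TPM test, those of complex V 7 and 8, and those of complex IV 4 with TPM. Against a 1.2-fold change, members called lower were 5, in complex II 0, complex III 1 and complex IV 1. In that test 2 genes of the list with the carriers and 7 regulators were called in either direction, against 7 and 13. DESeq2 called 0 of complex II lower. Leaving out each library in turn gave 57 to 60 members higher and 7 to 12 lower (12 without knockout replicate 3), 0 to 1 lower in complex II and 2 to 5 in complex V.

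Small changes turned sign. Atp5a1 was -0.0183 with unscaled totals, -0.0148 with upper-quartile factors and -0.0899 with either TPM test. Atp5j2 was -0.13 with both of these factor choices, -0.203 and -0.205 with TPM + 1 and + 0.1, -0.0106 with the stricter filter, -0.00254 with DESeq2, -0.00256 with RLE and -0.0144 to 0.0417 on leaving out a library. Cox7a2l was -0.0784 with unscaled totals, -0.0752 with upper-quartile factors and -0.15 with TPM. With TPM + 0.1 and + 1, Cox4i1 was -0.0505 and -0.0504 and Ndufab1 -0.0331 and -0.0287. Atp5d was 0.000224 without a filter. On leaving out a library it ran from -0.0757 to 0.0317, and Cox6c from -0.0981 to 0.0212. The cause was not tested.

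Same-numbered libraries did not deviate together (r = -0.00742, 0.0416 and 0.0132 for numbers 1 to 3). This shows no shared deviation, but it cannot tell whether same-numbered libraries were handled together, which the labels do not say. With the replicate block, 58 members were called higher and 11 lower.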
